A study of Rattus norvegicus with 79 samples.

Results

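Messenger RNA levels in the CA1 field of the hippocampus were compared between young rats trained to find a hidden platform in the water maze and young rats that stayed in their home cages. The 9 arrays were those whose titles mark a 3-month-old animal with hidden platform training (6 arrays, animals 2, 3, 37, 38, 39 and 40) or with no maze experience (3 arrays, animals 70, 74 and 76), out of 79 arrays in all. All animals were male Fischer-344 rats housed 2 to a cage, without transgene or drug treatment named in the labels. The hidden platform rats learned an escape platform under the water surface, and the cage controls did not swim. Tissue was taken 24 hours after the last trial. A punch of the main CA1 cell layer went through RNA isolation and 2 rounds of amplification, and each animal had its own array. The other young arrays were of 6 yoked rats, which swam without a platform, and 4 visible platform rats. They serve as a frame and also enter the statistical fit of the young arrays, where they help set the spread behind its p-values. The 24-month-old frame was 5 cage rats and 23 hidden platform rats, 10 impaired and 13 unimpaired learners by their titles. Of the fits, the 16 aged arrays whose titles carry an unexplained letter B enter only the alternative one of all arrays. They also count in the mean signal that filters probe sets and picks the brightest, and in each array's correlation with all others.

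CA1 pyramidal neurons are the main output cells of the hippocampus proper and are needed for spatial memory in the water maze. Learning acts on their glutamate receptors, calcium-dependent kinases and spine cytoskeleton, and neuronal activity switches on immediate early genes such as Fos, Egr1 and Arc within minutes. Most of these transcripts are short-lived, so that tissue taken on the following day is a late reading of training. A punch of the cell layer also contains interneurons, astrocytes, oligodendrocytes, microglia, vessels and blood.

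The ratio of 3' to 5' signal of control transcripts, a measure of how far amplified RNA reaches towards the 5' end, separated both groups. Its log2 value, averaged over the rat beta-actin, GAPDH and hexokinase control probe sets, was 2.67 ± 0.134 (SD, n = 6) on the hidden platform arrays and 0.922 ± 0.587 (SD, n = 3) on the cage arrays. The hidden arrays ranged from 2.53 to 2.82, and the cage arrays gave 0.584 (animal 70), 1.60 (74) and 0.581 (76). No cage array reached the lowest hidden array. The difference of 1.75 had a two-sided exact permutation p of 0.0119, the smallest that 84 arrangements can give, and an adjusted p of 0.0635 over the 8 quality measures compared. Beta-actin alone differed by 2.28 (exact p = 0.0238), GAPDH by 2.11 (0.0476) and hexokinase, with signals between 6.7 and 161, by 0.856 (0.298). Young yoked arrays had a mean of 2.31, young visible platform arrays 2.04 and aged cage arrays 2.21.

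The 3' signals of 2 of these control genes were low on the cage arrays. The 3' GAPDH probe set, which reads a glycolytic enzyme used in every cell, gave 6447 to 15083 on the hidden arrays (median 11238) and 114, 826 and 1098 on cage arrays 70, 74 and 76. On the 5 aged cage arrays the same probe set gave 12818 to 18969, and on the young yoked and visible platform arrays 211 to 18621. The 3' beta-actin probe set gave 2133 to 7029 on hidden arrays and 619.6, 1234 and 1299 on cage arrays, and its 5' probe set 176 to 572 on hidden arrays and 314, 196 and 1008.5 on cage arrays. Cage arrays 70 and 74 therefore lay within the hidden range at the 5' end of beta-actin and below it at the 3' end. GAPDH was low on these arrays at its 5' end too. That probe set gave 219, 112 and 686 on cage arrays 70, 74 and 76 and 511 to 2954.5 on hidden arrays. The middle GAPDH probe set gave 140, 181 and 752 on cage arrays and 922 to 6314 on hidden arrays.

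**Figure D1:**
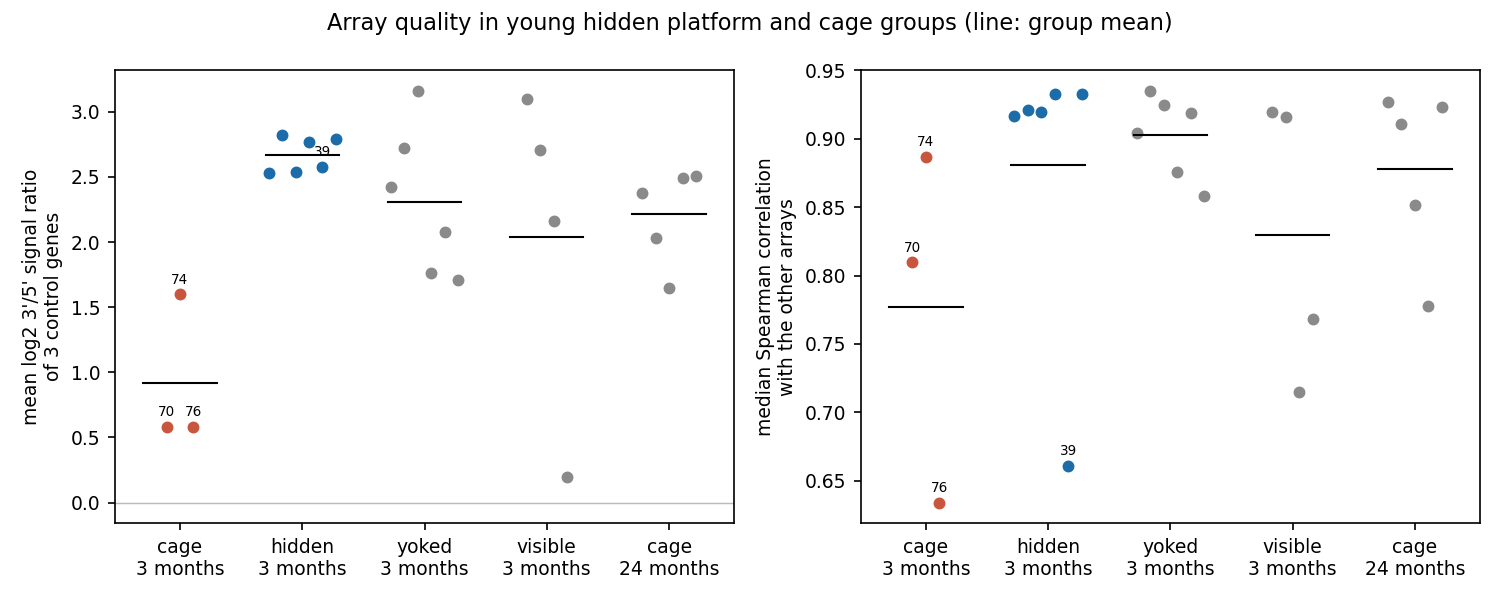
Left, the mean log2 3' to 5' signal ratio of 3 control genes on each array of 5 groups. Right, the median Spearman correlation of each array with all others. Points are arrays, lines are group means, and numbers are the animals named in the text. The 3 cage arrays at 3 months lie below every hidden platform array on the left (at most 1.60 against at least 2.53), and cage arrays 70 and 76 and hidden array 39 lie low on the right (0.810, 0.634 and 0.661).

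Cage arrays 70 and 76 and hidden array 39 also stood apart from the rest in other ways. Across probe sets, their Spearman correlation with the remaining arrays had a median of 0.810, 0.634 and 0.661, against 0.887 for cage array 74 and 0.917 to 0.933 for the other hidden arrays. Probe sets of the same gene disagreed by a median of 1.21, 0.819 and 1.46 (log2) on cage arrays 70, 74 and 76, by 1.10 on hidden array 39, and by 0.378 to 0.449 on the other hidden arrays. This measure differed between the groups by -0.641 (exact permutation p = 0.0238, adjusted 0.0635). No scan date or batch was used here. The genes called at their brightest probe set are therefore also given for the 5 hidden arrays other than 39 against cage array 74, a fit in which all young arrays of correlation under 0.85 were left out and the lone cage array is assumed to vary like the other groups. It is called the comparison with cage array 74.

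The CA1 neuron markers Nrgn and Hpca read high on all 9 arrays. Nrgn (neurogranin, a calmodulin-binding protein of pyramidal neurons) gave 9606 to 16142 (median 13860) on hidden arrays and 22326, 18310.2 and 9244 on cage arrays 70, 74 and 76, and Hpca (hippocalcin, a calcium sensor of these cells) 5181 to 16343 (median 9936) and 2632, 7618 and 2689.6. Of 17 CA1 and pyramidal neuron markers on the array 14 were kept by the signal filter, and Camk2a and Slc17a7 were among those left out. Some of the kept markers read low on a cage array. Gria1 gave 31.5 and Rasgrp1 11.5 on cage array 70, Camk2n1 11.3 on 74 and Itpka 28.5 on 76. Hidden array 39 also stood apart in choroid plexus genes. Ttr (transthyretin, the main secreted protein of the choroid plexus) read 42281 there and 148 to 982.5 on the other hidden arrays, against 1463, 438 and 448 on the cage arrays. The summed signal of 6 choroid plexus and ependyma markers was 47959 on array 39, 2006 to 3294 on the other hidden arrays and 2494 to 4228 on the cage arrays, and Kl, Prlr and Igfbp2 were also highest there (807, 860.3 and 1063). The part of this array in each result was measured by leaving it out.

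In trained rats 228 probe sets rose and 49 fell against cage rats. The synaptic phosphatase Ptprs, the kinase subunit Camk2b, the glutamate receptor subunit Gria1, the vesicle protein Vamp2 and the myelin protein Mbp were among the largest rises. The microglial receptor P2ry12, the glucose transporter Slc2a1, the phosphatase Ptprm and the ribosomal protein Rpl39 gave the 4 largest falls among genes taken at their brightest probe set. In limma, 277 of 5244 probe sets (5.28%) passed an adjusted p of 0.05 after Benjamini-Hochberg adjustment over all probe sets, with 228 rises (4.35%) and 49 falls (0.934%). With 1 probe set per gene, 112 of 3233 genes rose (3.46%) and 27 fell (0.835%). These shares are the background for the counts of passing list members given below. The groups did not overlap at 672 probe sets (12.8%), 402 with hidden higher (7.67%) and 270 with hidden lower (5.15%). Differences are hidden minus cage on the log2(signal + 15) scale, which understates changes of dim probe sets, and carry their standard error after ±. The median over all probe sets was -0.13.

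The number of calls changed with the arrays that entered the fit, and leaving out a cage array also lowers the precision. Without cage array 70 the fit called 4 probe sets, without 76 it called 34, without 74 it called 533, and with 74 as the only cage array and all 6 hidden arrays it called 0 (414 at an unadjusted p under 0.05). The comparison with cage array 74 called 7 (0.133%), 5 of them among the 277, and 709 had an unadjusted p under 0.05. Leaving out hidden array 37, 40, 3 or 38 gave 56, 89, 106 and 116 calls. When the 3' to 5' ratio entered the fit as a covariate, 0 passed (167, or 3.18%, at an unadjusted p under 0.05). The young yoked and visible platform arrays, with ratios from 0.197 to 3.16, also set the slope of that fit. Its median standard error over all probe sets was 0.628, against 0.501 without the ratio, and the median size of the 277 called differences went from 2.23 to 0.84. Of the 277, 273 kept their sign. Ptprs differed by 2.37 ± 0.616 in that fit, Gria1 by 2.90 ± 1.31, Arc by 1.41 ± 0.489, Vamp2 by 1.27 ± 0.686 and Hpca by -0.0749 ± 0.498.

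Over the 228 probe sets that rose, the mean of the hidden arrays lay a median of 2.66 above cage array 70, 2.64 above cage array 76 and 1.53 above cage array 74. Cage arrays 70 and 76 each read below every hidden array at 224 of them and cage array 74 at 193. Over all 5244 probe sets these 3 arrays did so at 24.3%, 25.7% and 19.7%. Over the 49 that fell, the hidden mean lay a median of 2.09, 1.89 and 1.51 below cage arrays 70, 76 and 74. All 3 cage arrays thus differed from the hidden arrays in the called direction, by least on array 74; these values entered the choice of the probe sets and are a description.

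Ptprs, receptor protein tyrosine phosphatase sigma, which sits at synapses and on axons, gave the largest rise among the genes taken at their brightest probe set. Its signal was 810.3 to 2849 (median 1997) on hidden arrays and 52.9, 61.4 and 45 on cage arrays 70, 74 and 76. The 3 cage arrays lay close together, none above 61.4, and the lowest hidden array, 39, gave 810.3. It rose by 4.76 ± 0.71 (adjusted p = 0.00329, limma), and by 4.82 ± 0.38 in the comparison with cage array 74 (adjusted p = 3.96e-06). Its other probe sets differed by 1.34 ± 0.78 and 1.59 ± 0.78 and did not pass.

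Camk2b, the beta subunit of calcium/calmodulin-dependent protein kinase II, a kinase needed for long-term potentiation, rose at both of its probe sets. The brighter gave 6246 to 16682 (median 7605) on hidden arrays and 2022, 4309.6 and 1160.1 on cage arrays, a rise of 1.94 ± 0.54 (adjusted p = 0.0385, limma). The dimmer gave 1192 to 5824 (median 2762) on hidden arrays and 8, 40.5 and 16.4 on cage arrays, a rise of 6.25 ± 0.97 (adjusted p = 0.00329). Neither overlapped between groups. In the comparison with cage array 74 the dimmer differed by 5.78 ± 1.02 (adjusted p = 0.0324) and the brighter by 1.04 ± 0.59. Of 12 measured CaM kinase and protein kinase C genes, Camk2b was the 1 that passed, the list's median was 0.59 against -0.14 over all genes, and Prkcz, an atypical protein kinase C, differed by 1.27 ± 0.44.

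Gria1 encodes GluA1, an AMPA receptor subunit inserted into CA1 synapses during potentiation. Its signal was 1020.4 to 8535 (median 2700) on hidden arrays and 31.5, 622 and 122 on cage arrays 70, 74 and 76. Hidden and cage arrays did not overlap, and cage array 74 lay nearest to the hidden range. It rose by 4.16 ± 1.01 (adjusted p = 0.0262, limma), the difference against cage array 74 was 2.35 ± 1.23, and the other probe sets differed by 2.07 ± 1.19 and 0.63 ± 0.66. The AMPA and NMDA receptor list of 14 genes also holds the kainate and delta receptor genes Grik2, Grik4, Grik5 and Grid1. Its second gene to pass was Grina, a glutamate receptor-associated membrane protein, which rose by 2.44 ± 0.48 (adjusted p = 0.012, limma). Grina differed by 2.69 against cage array 74. It gave 1957 to 4132 (median 2712) on hidden arrays and 525, 434 and 511 on cage arrays. The list's median was -0.22, so most of its members did not share this direction.

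Itpka, inositol trisphosphate 3-kinase A, an actin-binding enzyme of dendritic spines, gave 1749 to 6702 (median 4511) on hidden arrays and 297, 2246 and 28.5 on cage arrays. Cage array 74 overlapped the hidden arrays and array 76 was lowest. It rose by 3.75 ± 1.02 (adjusted p = 0.0383, limma), with 1.15 against cage array 74. Atp2b1, a calcium pump of the plasma membrane, gave 897 to 3226 (median 2353) against 268, 826 and 201 and rose by 2.52 ± 0.67 (adjusted p = 0.0357), with 1.58 against cage array 74. Together with Gria1 these were the 3 of 14 CA1 and pyramidal neuron markers that passed, and the list's median was 0.79 (0.51 against cage array 74). Nrgn differed by -0.20 ± 0.39 and Hpca by 1.38 ± 0.51, so the markers did not move as 1 block.

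Vamp2, synaptobrevin 2, the vesicle protein that drives transmitter release, gave 1114 to 4541 (median 3354) on hidden arrays and 158, 462 and 249 on cage arrays. The groups did not overlap, and all 3 cage arrays were low. It rose by 3.41 ± 0.71 (adjusted p = 0.0147, limma), with 2.92 ± 0.95 against cage array 74, and a second probe set gave a difference of -0.77 ± 0.50. Vamp2 was the 1 of 20 synaptic vesicle genes that passed, with a list median of 0.42 (0.51 against cage array 74). Pde2a, which breaks down cyclic AMP and cyclic GMP, rose by 3.40 ± 0.77 (adjusted p = 0.0201; 4.67 against cage array 74), the 1 of 18 cyclic nucleotide genes that passed, with 239 to 1149.9 (median 723) on hidden arrays and 22.8, 8.5 and 251 on cage arrays. Here hidden array 40 lay below cage array 76.

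Cytoskeletal genes were also among the rises. Sptan1, the alpha-spectrin of the membrane skeleton, gave 224 to 1965 (median 1110) on hidden arrays and 24.9, 146 and 41.4 on cage arrays, and rose by 3.63 ± 0.95 (adjusted p = 0.0332, limma). Actg1, gamma-actin, gave 834 to 6322 (median 3031) and 264, 228 and 294, a rise of 3.34 ± 0.84 (adjusted p = 0.0284), and its 3 cage arrays lay close together. Nefh, the heavy neurofilament chain, rose by 2.62 ± 0.76 (adjusted p = 0.0453), while its other probe set differed by -1.09 ± 0.70. Actg1 and Nefh were the 2 of 19 cytoskeleton list genes that passed (median 0.29, and -0.085 against cage array 74). The actin-binding protein Coro1a, with 707 to 2539 (median 1121) against 32.2, 348 and 40.1, rose by 3.65 ± 0.84 (adjusted p = 0.0218). Against cage array 74 Sptan1 differed by 2.83, Actg1 by 3.87, Nefh by 1.09 and Coro1a by 1.91, and none of these passed there.

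Arc, whose protein acts at the postsynapse and in AMPA receptor removal, rose over all arrays. Its signal was 1921 to 4722 (median 3431) on hidden arrays and 2619, 849 and 984 on cage arrays 70, 74 and 76. Cage array 70 lay within the hidden range and the lowest hidden array was 39. The rise was 1.33 ± 0.37 (adjusted p = 0.0395, limma) over all arrays and 2.09 ± 0.39 against cage array 74. That comparison shares arrays with the main fit, keeps the lowest cage array and leaves out cage array 70. The call was lost with the 9 hidden and cage arrays alone and when any single cage array was left out. It was also lost without hidden array 2, 3, 37, 38 or 40. Dusp6, a phosphatase that turns off ERK kinases, gave 756 to 3322 (median 2552) and 576, 1073 and 111 and rose by 2.30 ± 0.65 (adjusted p = 0.0422), with 1.26 against cage array 74. These were the 2 of 13 effector immediate early genes that passed, with a list median of 0.15.

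Of 14 measured immediate early transcription factors 0 rose and 0 fell in limma, and 3 had an unadjusted p under 0.05, against 717 of all 3233 genes (22.2%). At 4 of the 14 the hidden mean was higher, against 43.6% of all genes, and the list's median was -0.40 (-0.43 against cage array 74). These counts are small, and the call shares lie near those of all genes. Egr1 gave 12297 to 20642 (median 17360) on hidden arrays and 60743, 27244 and 47265 on cage arrays, so that all cage arrays were higher at this probe set, a difference of -1.38 ± 0.46 (adjusted p = 0.0743, limma). This difference was -0.31 after quantile normalization and -0.64 against cage array 74. Its other 3 probe sets differed by 0.84, -0.35 and -0.27. Egr2 differed by -1.53 ± 0.50 (adjusted p = 0.066) and Fosl2 by -1.40 ± 0.52 (adjusted p = 0.0993).

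Fos, Bdnf and Homer1 are given as textbook activity genes and were picked after their values were seen. Fos gave 578 to 1296 (median 938) on hidden arrays and 1456, 722 and 2628 on cage arrays, a difference of -0.64 ± 0.42 (adjusted p = 0.355, limma). Bdnf, the neurotrophin, gave 149.5 to 399 (median 292) and 326, 437 and 586, a difference of -0.68 ± 0.47 (adjusted p = 0.382). Homer1, a postsynaptic scaffold, gave 2006 to 5479.9 (median 3428) and 19278, 10808 and 2478, a difference of -1.25 ± 0.56 (adjusted p = 0.178), and its 5 other probe sets ranged from -0.84 to 0.71. None of the 3 passed, and hidden and cage arrays overlapped in each. Syt4, an activity-regulated synaptotagmin, differed by 1.36 ± 0.46 (adjusted p = 0.0756) at its brighter probe set and rose by 2.21 ± 0.64 (adjusted p = 0.0453) at the other.

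**Figure D2:**
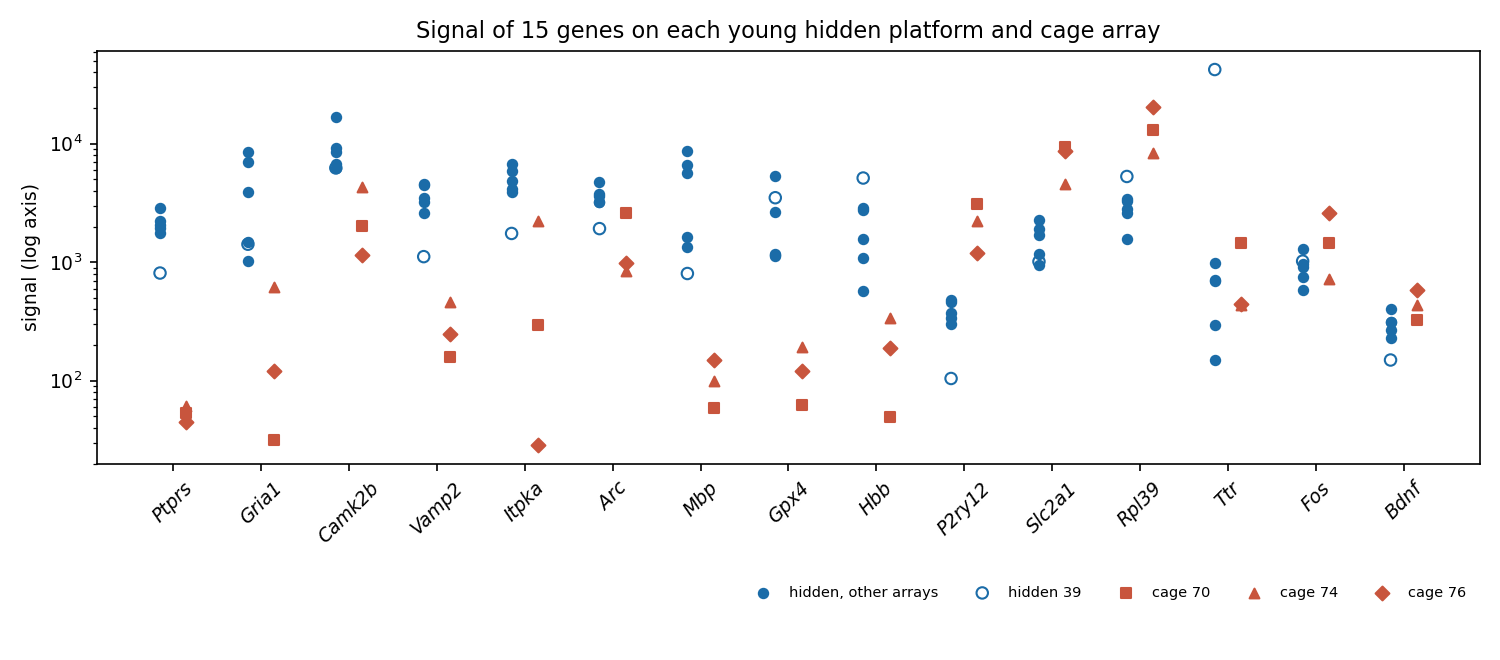
Signal, on a log axis, of 15 genes at their brightest probe set on each of the 6 hidden platform arrays (blue, array 39 open) and 3 cage arrays (red, by animal). The 3 cage arrays of Ptprs read at most 61.4 and the hidden arrays at least 810.3, cage array 74 approaches or enters the hidden range for Itpka and Camk2b, and Ttr reads 42281 on hidden array 39.

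Swimming is a stressor, and corticosterone acts on hippocampal neurons through the receptors Nr3c1 and Nr3c2. Of 9 glucocorticoid response genes 0 passed in limma (2 at an unadjusted p under 0.05, against 22.2% of all genes), with a median of -0.06. Klf9, a receptor target, gave 3410.3 to 5460.5 (median 4606) on hidden arrays and 14890.3, 12218 and 9152 on cage arrays, with every cage array higher, a difference of -1.39 ± 0.54 (adjusted p = 0.122, limma) that its second probe set did not share (0.27 ± 0.32). Nr3c1, the glucocorticoid receptor, differed by 0.77 ± 0.33 (adjusted p = 0.163) at one probe set and by -0.91 ± 0.47 at the other.

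Myelin genes were led by Mbp, myelin basic protein. It gave 803 to 8624 (median 3623) on hidden arrays and 58.8, 98.6 and 150.1 on cage arrays, and all 3 cage arrays were low. It rose by 4.70 ± 1.01 (adjusted p = 0.0165, limma), with 5.04 ± 1.34 against cage array 74. Mobp, another myelin protein, rose at 2 dimmer probe sets by 2.64 ± 0.68 and 2.12 ± 0.51 and differed by 1.15 ± 0.52 (adjusted p = 0.182) at its brightest, which overlapped. Mog and Cnp, also of myelin, differed by 1.63 ± 0.50 and 1.22 ± 0.39 and did not pass. With 1 probe set per gene, Mbp was the 1 of 14 oligodendrocyte and myelin genes that passed, and the median was 0.25 (0.59 against cage array 74). The summed signal of these 14 genes was 12728 to 34261 on hidden arrays and 17560, 16773 and 11466 on cage arrays 70, 74 and 76, so that 2 of the cage arrays lay within the hidden range.

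Astrocyte-enriched genes with large rises were Ndrg2 and Aldoc. Ndrg2, a cytoplasmic protein of astrocytes, gave 3049 to 7769.6 (median 6764) on hidden arrays and 814, 2588 and 47.6 on cage arrays, and rose by 3.50 ± 0.77 (adjusted p = 0.0178, limma). Aldoc, the brain aldolase, gave 3004 to 10223 (median 6253) and 691, 3317 and 115, rose by 3.16 ± 0.87 (adjusted p = 0.0385), and rose by 3.04 ± 0.86 at its second probe set. Both were lowest on cage array 76, and against cage array 74 they differed by 1.34 and 1.05. Aldoc was the 1 of 17 astrocyte markers that passed, and the list's median was 0.23, or -0.11 against cage array 74. Vim, vimentin of reactive astrocytes and vessels, was lower on every hidden array (86.7 to 359 (median 238) against 1102, 779 and 808) but did not pass (-2.10 ± 0.63, adjusted p = 0.0516).

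P2ry12, the ADP receptor of resting microglia, gave 104 to 482 (median 358) on hidden arrays and 3091, 2242 and 1206 on cage arrays, with all cage arrays high. It fell by 2.64 ± 0.63 (adjusted p = 0.0244, limma) and differed by -2.49 ± 0.67 against cage array 74. Ctsd, the lysosomal protease cathepsin D, gave 282 to 1195 (median 639) and 48.3, 68.2 and 178 and rose by 2.70 ± 0.74 (adjusted p = 0.0383), with 3.07 against cage array 74. C1qb, a chain of complement C1q, differed by 1.77 ± 0.64 (adjusted p = 0.092), with every cage array below every hidden one. Cd53, on the microglia and complement list, differed by -1.74 ± 0.58 (adjusted p = 0.074, limma), with every cage array above every hidden one. Of 14 genes on the microglia and complement list, which did not hold P2ry12, 1 rose and 0 fell, with a median of -0.06.

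Slc2a1, GLUT1, which carries glucose across the blood-brain barrier, gave 939 to 2273 (median 1432) on hidden arrays and 9401, 4552 and 8718 on cage arrays and fell by 2.33 ± 0.58 (adjusted p = 0.0276, limma). Its second probe set differed by 1.87 ± 0.63 (adjusted p = 0.0761), in the opposite direction. Icam1, an adhesion molecule of endothelium, rose by 1.65 ± 0.49 (adjusted p = 0.0499), and its second probe set differed by -0.21 ± 0.67. These were the 2 of 15 endothelial and mural genes that passed. The beta globins Hbb and Hbb-b1 rose by 3.47 ± 0.74 and 2.70 ± 0.61 (adjusted p = 0.0163 and 0.0201), with 571 to 5135 (median 2152) on hidden arrays and 49.6, 340.3 and 190.4 on cage arrays for Hbb. Hidden array 39 was highest for both. Against cage array 74 Slc2a1 differed by -1.57, Icam1 by 2.31, Hbb by 2.10 and Hbb-b1 by 1.62, and none of these passed there. Hbb and Hbb-b1 are near-identical copies whose probe sets can share signal, and of the other 2 blood cell genes neither Slc4a1 nor Alas2 passed.

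Markers of the other cell types that a CA1 punch can hold differed among the 3 cage arrays. The summed signal of 17 astrocyte markers was 87897 to 128889 on hidden arrays and 149708, 112401 and 55705 on cage arrays 70, 74 and 76. That of 14 interneuron genes was 11325 to 19388 and 36970, 27334 and 12997. Over 14 microglia and complement genes the sums were 8744 to 13411 and 18834, 17266 and 7320, and over 15 endothelial and mural genes 4350 to 9428 and 13136, 7336 and 15805. Cage array 70 lay above the hidden range in each of these 4 sums, while cage array 76 lay below it for 2. Single bright genes weighed heavily in the sums. Slc2a1 alone gave 9401, 4552 and 8718 of the endothelial and mural sums on cage arrays 70, 74 and 76. On cage array 70 Sst and Gad1 gave 14546.5 and 11359.5 of the interneuron sum. Gad2 read 31.6 there, below all hidden arrays (97 to 246.2), and Slc32a1 855.6, within their range (822.5 to 2570.5). In tissue RNA, fewer cells of a type and less RNA per cell cannot be told apart.

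Genes of basic cell upkeep were also called. Of 41 cytosolic ribosomal protein genes 5 rose and 1 fell, against 3.46% and 0.835% of all genes. The list's median was 0.59, and -0.14 against cage array 74. Bright probe sets rose more often, 159 of 1748 in the bright class described below. Rpl18, with 656 to 2480.4 (median 1530) on hidden arrays and 167, 462 and 116 on cage arrays, rose by 2.61 ± 0.51 (adjusted p = 0.012, limma), and Rpsa, with 1248 to 4878 (median 2125) and 153, 884 and 91.5, by 3.24 ± 0.82 (adjusted p = 0.0293). Rpl39 went the other way, with 1572 to 5293 (median 3072) on hidden arrays and 13115, 8421 and 20268 on cage arrays, and fell by 2.13 ± 0.49 (adjusted p = 0.0201). No ribosomal gene passed in the comparison with cage array 74, where these 3 differed by 1.42, 1.43 and -1.66.

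Of 33 oxidative phosphorylation genes 3 rose and 0 fell, against 3.46% and 0.835% of all genes, with a median of 0.02. These were Cyc1, cytochrome c1 (by 2.31 ± 0.63), and the ATP synthase subunits Atp5pd (2.34 ± 0.65) and Atp5f1b (1.85 ± 0.52), and in each of the 3 cage array 76 was lowest. They differed by 1.03, 0.78 and 0.52 against cage array 74. Among 20 glycolysis genes Aldoc rose and Slc2a1 fell, and Hk1, the brain hexokinase, differed by 1.24 ± 0.40. Gpx4, which repairs lipid peroxides in membranes, gave 1127 to 5326 (median 1913) on hidden arrays and 61.9, 193 and 121 on cage arrays and rose by 4.0 ± 0.89 (adjusted p = 0.0201, limma), with 3.17 ± 1.21 against cage array 74. Gstm5, a glutathione transferase, rose at both probe sets, by 3.07 ± 0.61 (adjusted p = 0.012) and 4.06 ± 0.92. Gclm, the regulatory subunit of glutathione synthesis, fell by 1.81 ± 0.46 (adjusted p = 0.0305), and of 25 antioxidant genes 4 rose and 1 fell. Against cage array 74 Gstm5 differed by 1.34 at its brighter probe set and Gclm by -1.72.

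The chaperones of the endoplasmic reticulum Calr (calreticulin) and Pdia3 were the 2 of 22 chaperone genes that passed. Over all genes 3.46% rose and 0.835% fell. Calr gave 2204 to 5913 (median 4783) on hidden arrays and 512, 486 and 1652 on cage arrays, and did not overlap. It rose by 2.52 ± 0.58 (adjusted p = 0.0201, limma), and by 3.32 ± 0.58 against cage array 74 (adjusted p = 0.0324). Pdia3 rose by 2.13 ± 0.50 (adjusted p = 0.0233), with array 40 highest at 2453, while its second probe set differed by -0.90 ± 0.35. Of 22 lysosomal and autophagy genes 3 rose and 0 fell, with a median of 0.73 (0.15 against cage array 74): Ctsd, the proton pump subunit Atp6v1a (by 2.87 ± 0.57) and Atg13, of the complex that starts autophagy (by 2.76 ± 0.67). Atp6v1a gave 5799 to 14998 (median 8343) on hidden arrays and 538, 1890.5 and 1731 on cage arrays. Its other probe sets differed by 0.51 and -0.98. Against cage array 74 Pdia3 differed by 1.64, Atp6v1a by 2.35 and Atg13 by 3.53.

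Most of the remaining named falls were at dimmer probe sets. Ptprm, a receptor tyrosine phosphatase of cell contacts, gave 80.1 to 358 (median 125) on hidden arrays and 766, 599 and 1019 on cage arrays and fell by 2.27 ± 0.54 (adjusted p = 0.0244, limma). Rev1, of DNA damage bypass, fell by 2.10 ± 0.53, Taf1, of the basal transcription factor TFIID, by 2.08 ± 0.50, Ssbp2, a DNA-binding protein, by 1.94 ± 0.52 and Bend3 by 1.97 ± 0.56. Bdh1, of ketone body use, fell by 1.91 ± 0.51, the tyrosine kinase Fer by 1.90 ± 0.50 and Dgkb, a diacylglycerol kinase of neurons, by 1.85 ± 0.55. The translation factor subunit Eif2b3, named after its values were seen, fell by 1.42 ± 0.41. Every hidden array lay below every cage array for these 9 genes, as at 5.15% of all probe sets. They were named for their falls or after their values were seen, so this is a description. Against cage array 74 Ptprm differed by -1.86, Rev1 by -1.70, Taf1 by -1.91, Ssbp2 by -1.14, Bend3 by -0.99, Bdh1 by -1.07, Fer by -2.17, Dgkb by -2.16 and Eif2b3 by -1.24, and none passed there. Gabrr1, a GABA receptor rho subunit, fell by 1.83 ± 0.46 (adjusted p = 0.0284), the 1 of 12 GABA and glycine receptor genes that passed, and overlapped, with -1.09 against cage array 74.

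Ywhaz, the 14-3-3 zeta adaptor, was bright, with 3751 to 9033 (median 6430) on hidden arrays and 33881, 16279.9 and 21309 on cage arrays. It fell by 1.91 ± 0.54 (adjusted p = 0.0419, limma), with -1.34 against cage array 74, but its other probe sets differed by 2.65 ± 1.02 and 0.85 ± 0.55. Of the 49 probe sets that fell, 31 (63.3%) had a name that begins with rc_, the mark on this array of probe sets designed from expressed sequence tags, against 70 of the 228 that rose (30.7%) and 2222 of all 5244 (42.4%).

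Lists drawn from textbook roles and without any member past the threshold were the neurotrophins and their receptors (19 genes, median -0.03), postsynaptic scaffold genes (21, -0.19), voltage-gated channels (26, -0.355), monoamine and acetylcholine receptors (28, -0.25), metabotropic glutamate receptors (5, -0.40), interneuron genes (14, -0.23), markers of neighbouring hippocampal fields (8, -0.23) and choroid plexus genes (6, -0.05). At an unadjusted p under 0.05 they held, in this order, 3, 2, 4, 4, 1, 4, 0 and 0 genes (limma), against 22.2% of all genes. The smallest adjusted p among the neurotrophin genes was for Ntrk2, the BDNF receptor, with 1101 to 1811 (median 1416) on hidden arrays and 229.6, 771 and 408 on cage arrays (1.70 ± 0.53, adjusted p = 0.0579, limma). Gad2, which makes GABA in interneurons, differed by 1.55 ± 0.54 (adjusted p = 0.0834). Gad1 and Tac1, on the same interneuron list, went the other way (-1.20 ± 0.54 and -1.04 ± 0.375). Of its 14 genes 6 had a higher hidden mean. Mt3, a brain metallothionein, differed by 1.51 ± 0.48 (adjusted p = 0.0632). For Ntrk2, Gad2 and Mt3 all cage arrays read below all hidden arrays, as at 7.67% of all probe sets. They were named for a small p within their lists, so this is a description. Of 27 proteasome and ubiquitin genes, Psme2, a proteasome activator subunit, was the 1 that passed, with a rise of 2.18 ± 0.55 (adjusted p = 0.0293) and 1.45 against cage array 74.

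**Figure D3:**
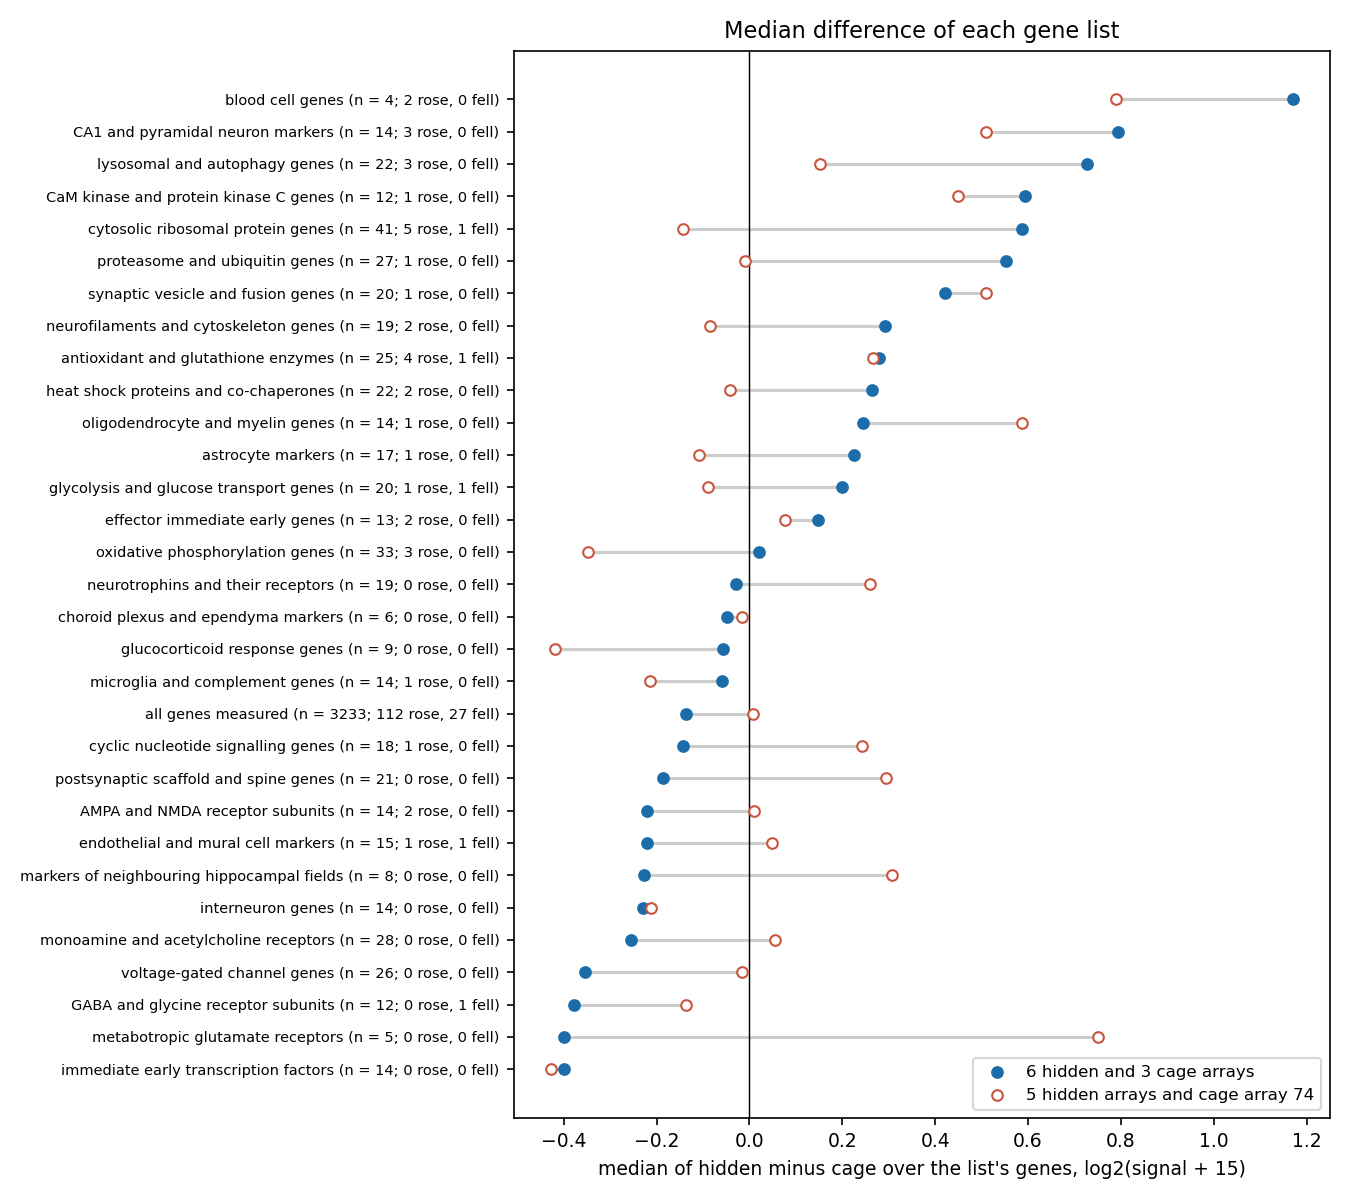
Median log2 difference, hidden platform minus cage, over the measured genes of each of 30 lists and over all 3233 genes. Filled points use 6 hidden and 3 cage arrays, open points 5 hidden arrays and cage array 74, and labels give the genes past the threshold. Ribosomal protein genes move from 0.59 to -0.14 and proteasome genes from 0.55 to -0.01, while immediate early transcription factors stay at -0.40 and -0.43.

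Several genes have more than 1 probe set, which allows a check within each array. Among genes with 2 or more kept probe sets (824), 10 had at least 2 that passed in the same direction, all of them upwards: Gstm5, Aldoc, Psmb5, Hsp90ab1, Ppp2r1a, Fdft1, Mobp, Dapk3, Camk2b and Psmb4. Ppp2r1a, the scaffold of protein phosphatase 2A, rose by 2.15 ± 0.57 and 2.61 ± 0.68, with 2599 to 9712 (median 6838) on hidden arrays and 1567, 2159 and 765 on cage arrays at the brighter. Dapk3, a death-associated kinase, rose by 2.08 ± 0.57 and 2.53 ± 0.69, and Fdft1, squalene synthase, by 2.67 ± 0.78 and 2.12 ± 0.62, its other 2 probe sets not passing. Against cage array 74 Ppp2r1a differed by 1.75, Dapk3 by 1.52 and Fdft1 by 3.82 at the brightest probe set. Hsp90ab1, the constitutive HSP90, rose by 3.86 ± 0.75 and 2.17 ± 0.60 at 2 of 4 probe sets, and its brightest differed by 1.11 ± 0.42 (adjusted p = 0.113, limma).

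The core proteasome subunits Psmb5 and Psmb4 showed how far probe sets of a gene could part. Psmb4 rose by 1.89 ± 0.50 and 1.72 ± 0.39 at 2 probe sets, while its brightest gave 3583 to 10392 (median 4981) on hidden arrays and 29782, 3299 and 37205 on cage arrays, a difference of -1.49 ± 0.71 carried by cage arrays 70 and 76. Psmb5 rose by 3.54 ± 0.87 and 2.44 ± 0.71, and its brightest differed by 0.62 ± 0.41. Over all 204 genes with a called probe set, 107 had another kept probe set. Of those 162 other probe sets 106 (65.4%) had the same sign, 10 were called the same way and 1 the opposite way. The median size of the called differences was 2.16, and the other probe sets moved in the called direction by a median of 0.37.

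The sign of the difference also went with signal. Probe sets were split by mean signal into 3 classes of 1748. In the bright class 159 rose and 18 fell, in the middle class 53 and 22, and in the dim class 16 and 9. The median difference was 0.26, -0.19 and -0.34 in these classes over all arrays, and -0.01, 0.07 and 0.03 against cage array 74. After quantile normalization of the young arrays the medians over all arrays were 0.25, -0.21 and -0.37.

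**Figure D4:**
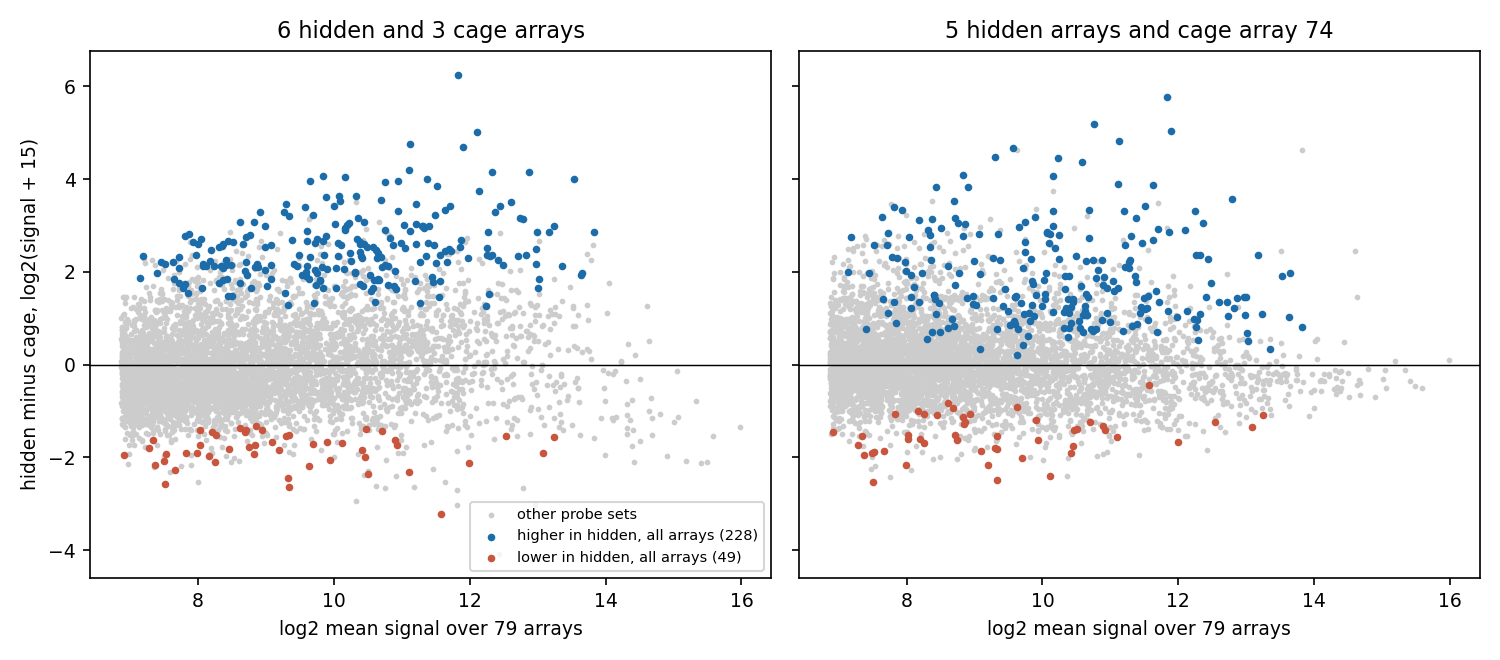
Log2 difference, hidden platform minus cage, of 5244 probe sets against their log2 mean signal over all arrays. Left, all 6 hidden and 3 cage arrays. Right, 5 hidden arrays and cage array 74. Colours mark the 228 probe sets that rose and the 49 that fell on the left. On the left the bright class has a median of 0.26 and the dim class -0.34, and on the right these are -0.01 and 0.03.

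The levels of all 4 young groups were set side by side at the called probe sets. Over the 228 that rose, the median level (mean log2 signal of a group) was 10.2 in hidden, 9.76 in yoked, 9.36 in visible platform and 7.7 in cage rats, and the cage mean was the lowest of the 4 young groups for all 228. Over the 49 that fell, it was the highest for all 49, with medians of 8.6, 9.16, 9.35 and 10.2 in hidden, yoked, visible and cage rats. For Ptprs the levels were 10.8 in hidden, 10.9 in yoked, 9.5 in visible and 6.1 in cage rats, and for P2ry12 8.4, 8.8, 9.4 and 11. Over all 5244 probe sets the cage mean was the lowest at 1774 and the highest at 2277, together 77.3%. Since the cage arrays chose the called probe sets, these counts are a description.

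The contrast of hidden and cage rats at 24 months used no array of the young one. Its hidden value averaged the means of impaired and unimpaired learners at equal weight. It gave 0 probe sets past the threshold in limma, with 437 (8.33%) at an unadjusted p under 0.05. The 228 probe sets that rose in young rats had a median aged difference of -0.09, and 88 of them (38.6%) were higher in aged hidden platform rats, against 58.3% of all probe sets. Of the 49 that fell, 34 were higher (median 0.17). Ptprs differed by 0.11 ± 0.58 in aged rats, Gria1 by -0.38 ± 0.72, Vamp2 by 0.12 ± 0.47, Mbp by 0.24 ± 0.76 and Arc by -0.21 ± 0.33. Aged cage rats had a median level of 10.2 at the 228 probe sets, the same as aged hidden platform rats. Aged arrays also varied in quality. The median Spearman correlation was under 0.85 on 2 of 10 impaired, 1 of 13 unimpaired and 1 of 5 cage arrays. It was lowest on impaired arrays 83 (0.223) and 8 (0.445), and array 83 had a log2 3' to 5' ratio of -0.161.

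The difference between the ages was tested over all probe sets, as the aged minus the young value of hidden minus cage over 63 arrays. In limma 369 of 5244 probe sets (7.04%) passed, 257 with the lower value in aged rats (4.9%) and 112 with the higher (2.14%). Of the 228 probe sets that rose in young rats 164 passed, and of the 49 that fell 32. This test holds the young values that chose these probe sets, so those 2 counts are a description. Leaving out young cage array 70 gave 69 and leaving out 76 gave 221. A fit with the 3' to 5' ratio as covariate gave 3.

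**Figure D5:**
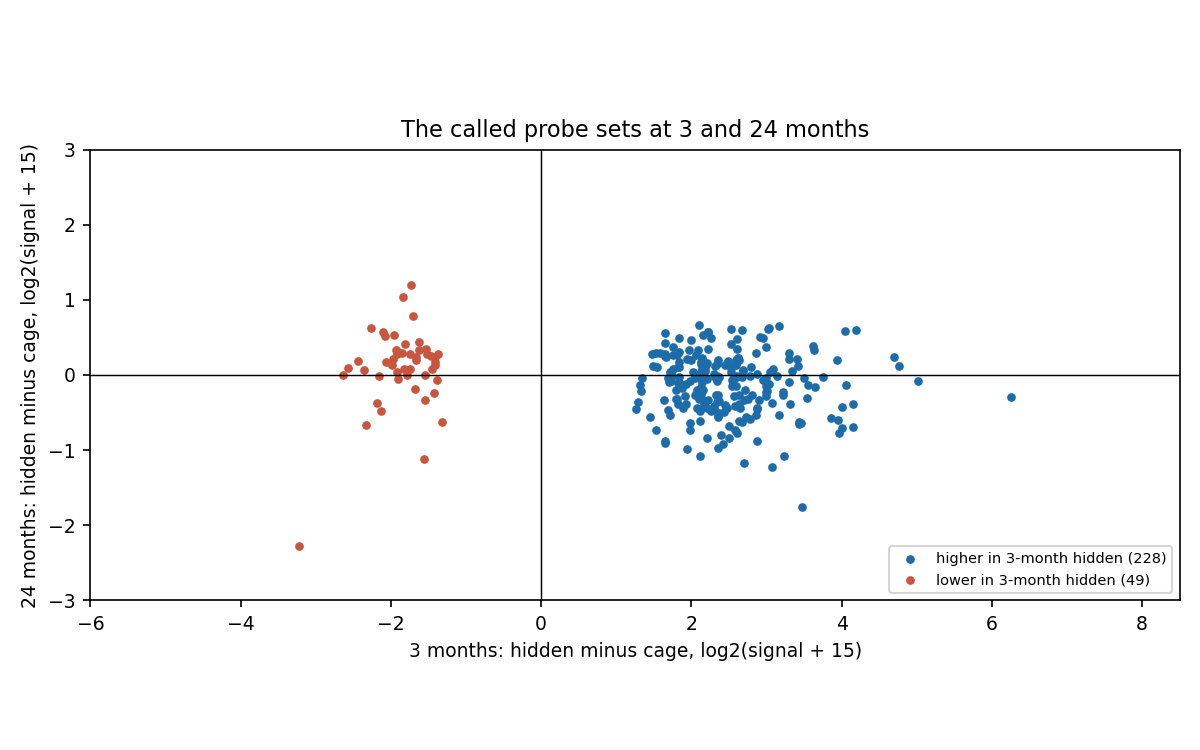
Log2 difference, hidden platform minus cage, of the 277 called probe sets at 3 months (horizontal) and 24 months (vertical), drawn to the same scale. The 228 that rose (blue) have a median of 2.36 at 3 months and -0.09 at 24 months, and the 49 that fell (red) -1.81 and 0.17.

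The 7 probe sets called in the comparison with cage array 74 all had higher signal in trained rats. Ptprs, Camk2b, Calr and Arc are described above, and the other 3 were named for this result. Pebp1, an inhibitor of Raf kinase, gave 698 to 2481 (median 1226) on hidden arrays and 243, 44 and 736 on cage arrays 70, 74 and 76 at the probe set called, a difference of 4.37 ± 0.70 against cage array 74 (adjusted p = 0.028). It rose by 2.54 ± 0.63 over all arrays, while its brighter probe set differed by 2.02 ± 0.63. Eif2b3 and Map2k5, a kinase of the ERK5 pathway, were called at probe sets that read 33.4 and 21.5 on cage array 74 and 364 and 449.7 on cage array 76, within or above the hidden range. Over all arrays those 2 probe sets differed by 1.52 ± 0.53 and 1.38 ± 0.60 and did not pass. Over all arrays, Ptprs, Camk2b and Calr had all 3 cage arrays below all 6 hidden arrays at these probe sets, and Arc and Pebp1 overlapped. These signals also chose the probe sets, so this is a description. The comparison with cage array 74 shares its arrays with the main fit and has a lone cage array. Of the genes named at their brightest probe set, Ptprs, Arc and Calr kept their call there, and with all 6 hidden arrays against cage array 74 none did.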

How the data were processed

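The authors deposited intensity values on a linear scale, with 1 signal for each probe set. They were computed in MAS5, as the submitters' processing notes name it. Arrays had been scaled before deposit, since their means, trimmed of 2% at each end, were 500.09 to 500.98. Scaling sets an array's overall level, so that differences are relative to it. No genome build is named in the sources used here, so coordinates and sequences are not printed. Probe sets took the symbol of the platform annotation, updated through the gene identifier: 7018 had 1 symbol, 308 several and 1426 none, and only those with 1 are named.

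The tests used log2(signal + 15), with a pseudocount at the 10th percentile of the whole table. The 59 control probe sets and the 40% of the others with the lowest mean signal were left out, which kept 5244 of 8799. limma 3.58.1 in R 4.3.3 (lmFit, eBayes with trend) fitted 1 mean per group over the 19 young arrays, or over 63 arrays for the test of the ages, two-sided, with Benjamini-Hochberg adjustment. Groups came from the sample titles, each array is a different animal, and the number of arrays limits the precision. Quality measures were compared with an exact permutation test. The scripts were tested on simulated data.

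Genes were picked by rule at the brightest probe set of each gene. The rule took the 12 largest rises and 12 largest falls, and up to 10 genes with 2 or more called probe sets. It also took the 3 members with the smallest p of each of 30 lists. Not all of those list members are described, so the ones shown are a selection. Ttr, Hpca, Nrgn, Fos, Bdnf, Homer1, Pebp1, Eif2b3 and Map2k5 were added after their values were seen, as were the choroid plexus genes. The groups, lists and tests were chosen with earlier results of these data known. Alternatives were other pseudocounts, filters, normalizations, covariates, weights and sample sets, leaving out each array in turn, and the other probe sets of each gene. No paired analysis was possible because the replicate numbers are animal numbers that no 2 groups share.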

Additional observations from a re-analysis of the deposited data

Results flagged for a closer look

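For 10 of the named genes, the log2 signal of hidden array 39 lay far from the other 5 hidden arrays. It was low for P2ry12 (6.90 against 8.30 to 8.96), Ssbp2 (6.91), Fdft1 (7.53), Dusp6 (9.59), Atp2b1 (9.83), Calr (11.1) and Nrgn (13.2). It was high for Ttr (15.4 against 7.35 to 9.96), Gclm (8.09) and Map2k5 (10.4). On hidden array 40, Pdia3 was high (11.3 against 8.86 to 9.60). Dixon's test at its 95% critical value set these values apart, and chance sets apart about 1 group in 20. With hidden array 39 left out, the difference of Ttr was -0.488 and that of P2ry12 was called.

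The hidden minus cage difference was not the same at 24 and 3 months for 40 of 78 named genes followed here. This came from the interaction test over 63 arrays (limma, adjusted p between 0.00555 and 0.0485). The aged value was the lower one for Hbb (-5.23), Ptprs (-4.64), Gria1 (-4.54), Mbp (-4.46), Gpx4 (-4.43), Rpsa (-4.31), Hbb-b1 (-3.87), Coro1a (-3.81), Aldoc (-3.70), Ndrg2 (-3.54), Gstm5 (-3.45), Rpl18 (-3.38), Atp6v1a (-3.32), Sptan1 (-3.30), Vamp2 (-3.30), Actg1 (-3.29), Pde2a (-3.19), Atg13 (-3.08), Ctsd (-3.03), Camk2b (-2.92), Cyc1 (-2.76), Mt3 (-2.61), Pebp1 (-2.54), Dapk3 (-2.53), Atp2b1 (-2.39), Ppp2r1a (-2.35), Grina (-2.31), Calr (-2.11), Psme2 (-2.08), Mog (-1.70). Among these are synaptic, myelin, globin and housekeeping genes, and Mt3, Pebp1 and Mog did not pass in the young comparison at this probe set. The aged value was the higher one for Ptprm (2.89), Rev1 (2.67), P2ry12 (2.64), Taf1 (2.60), Ssbp2 (2.27), Gclm (2.22), Fer (2.20), Bend3 (2.19), Dgkb (2.14), Ywhaz (1.95). Ptprs, Camk2b and Calr are among the first set, and Arc is in neither. Over all probe sets 7.04% passed. Most of these genes were named for their young differences, which the test holds, so their number is a description. All of these values use the 3 young cage arrays described above.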

How the results depend on the processing

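Over the young arrays 277 probe sets passed. The count was 145 with arrays centred on their median, 1484 with array quality weights (61.4% of them rises, against 82.3%), 0 with the 3' to 5' ratio and 13 with spike-in signal as covariate, 7 without arrays of correlation under 0.85, 748 in a fit of all 79 arrays (70.7% rises) and 0 without cage arrays 70 and 76, an alternative added after seeing the data. Quantile normalization gave 265, 75.5% of them rises. Leaving out 1 array gave 4 (without cage array 70) to 533 (without cage array 74, 227 of them shared), and 34 without cage array 76, 56, 89, 106 and 116 without hidden arrays 37, 40, 3 and 38, and 526 without visible platform array 65. With other pseudocounts and filters, without trend, and with the 9 arrays alone the count stayed within 1.5 times.

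Of the difference between ages, 369 probe sets passed. The count was 225 with quantile normalization, 232 with centred arrays, 1856 with weights, 3 with the ratio covariate and 239 without arrays of low correlation. Counts with 1 array left out ran from 69 to 524, and were 69, 221 and 216 when that array was cage 70, cage 76 or hidden 37. The 3' to 5' difference was 1.58 to 2.09 with 1 array left out, and 0.856 with hexokinase alone.

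With the ratio covariate the sign turned for Psmb4 (0.642), Klf9 (0.348), Fos (0.363), Hpca (-0.0749) and Nefh (-0.00303). Without arrays of low correlation it turned for Psmb5 (-0.087), Psmb4 (0.541) and Fos (0.264), and without cage arrays 70 and 76 for Psmb5 (-0.138), Psmb4 (0.726) and Fos (0.302). Leaving out 1 array gave Psmb5 values from -0.06 (without cage array 76) to 1 (without cage array 74), Nrgn -0.577 (without cage array 76) to 0.0585 (without cage array 70) and Ttr -0.488 (without hidden array 39) to 1.15 (without cage array 70). Quantile normalization turned Nrgn (0.365) and weights Ttr (-1.33). Other probe sets of the opposite sign were those of Vamp2 (-0.767), Slc2a1 (1.87), Ywhaz (0.847 and 2.65), Fdft1 (-0.294), Psmb4 (1.72 and 1.89), Egr1 (0.841), Klf9 (0.269), Nr3c1 (-0.911), Icam1 (-0.208), Pdia3 (-0.899), Nefh (-1.09), Atp6v1a (-0.976), Hk1 (-0.047), Eif2b3 (1.52 and 0.189), Nrgn (0.359), Bdnf (0.426) and Homer1 (0.713, 0.421 and 0.097). Of 709 values of the 51 called genes under alternatives, 460 kept call and direction, 248 lost the call and 1 turned. Of 969 with 1 array left out, 706 kept the call and 263 lost it. The causes of these changes were not tested. With 3 cage arrays, of which 2 correlate poorly with the rest, the number and quality of the cage arrays limit every value.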
